A study of Mus musculus with 6 samples.

Results

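The suprabasal epidermal keratins examined here were Krt1, Krt2, Krt10, Krt77, Krt78 and Krt80, the keratin genes of the cell layers above the basal layer of the epidermis. They were chosen by gene symbol, 6 of the 54532 genes in the count table, and 5 of the 6 had enough counts to be among the 13157 genes tested. Krt2 did not pass that filter and is given by its counts. RNA had been sequenced with Smart-seq2, which copies whole transcripts from small numbers of cells, from dissociated dorsal epidermis of male and female C57BL/6 mice aged 4 weeks. Each of the 6 libraries came from 500 sorted events that excluded the dead-cell dye DAPI. The NCAM-enriched group (n = 3 libraries) had been bound to magnetic beads against PSA-NCAM, the polysialylated form of the adhesion molecule NCAM, and then sorted with a fluorescent antibody to the same epitope. The bulk skin group (n = 3 libraries) was sorted as all DAPI-negative cells of the same tissue, with no marker selection. The labels give no genotype or treatment that differs between the groups. The study's methods describe sorting 500 events in triplicate into a plate, and the labels do not tie the libraries to separate animals. The libraries may therefore be technical replicates, and the p-values below measure only the spread between these libraries.

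Keratins are the intermediate filament proteins of epithelial cells, and a filament needs a type I and a type II keratin in equal parts. Basal keratinocytes, which divide, make type II Krt5 with type I Krt14. When a cell leaves the basal layer it shuts these genes down and turns on Krt1 (type II) with Krt10 (type I), the main filament pair of the spinous layers. Krt2, Krt77, Krt78 and Krt80 are further type II keratins of differentiating keratinocytes. Merkel cells, the touch receptor cells of the epidermis, carry NCAM and use the simple epithelial keratins Krt8, Krt18 and Krt20.

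On GRCm38 all 6 genes are protein-coding and lie on the minus strand. Krt10 is on chromosome 11 (99385254 to 99389364), in the type I keratin cluster. The 5 type II genes are on chromosome 15, with Krt80 (101347444 to 101370162) set apart from the others by 441 kb. Krt2 (101810689 to 101818169), Krt1 (101845426 to 101850794) and Krt77 (101858731 to 101869705) are neighbours, with gaps of 27.3 and 7.94 kb, and Krt78 (101946001 to 101954287) begins 76.3 kb beyond Krt77. Krt1, Krt2, Krt77 and Krt78 share no exonic stretch of 50 bases with another gene, so no exonic read of that length would match a second annotated gene exactly. Krt10 and Krt80 share 2.37% and 2.74% of such stretches, mainly with Gm11940 and Gm35853, which overlap them. The corresponding share was 12.2% for Krt5, 13.9% for Krt14, 29.7% for Krt8, 37.6% for Krt16 and 57.2% for Krt6a, whose counts are therefore less certain.

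RefSeq promoter sequences (GRCm38.p6) were at hand for 4 of the 6 genes, Krt2, Krt10, Krt77 and Krt78. The 30 bases from 45 to 16 before the annotated start are shown because 3 of the 4 members hold the letters TATANA there. Letters belonging to a TATANA match are in capitals, each sequence reads 5′ to 3′ on the coding (minus) strand, and Krt5 is given beside them as a basal type II keratin.
Krt10 (chr11:99389380-99389409): gagacacgccctctcagTATATAAAggctc
Krt77 (chr15:101869721-101869750): cccagcaggtgtgtgTATATATAgggactg
Krt2 (chr15:101818185-101818214): acacctagttggcaggTATATAagggaccc
Krt78 (chr15:101954303-101954332): ccaaggacgggaggggataaaagtctcgtg
Krt5 (chr15:101712921-101712950): acccacttctaaggggataaaaggggacct
The first capital lay 28 bases before the start in Krt10, 30 in Krt77 and 29 in Krt2, and Krt78, Krt5 and the basal type I keratin Krt14 (not shown) held no match in this window. Of 32851 RefSeq promoters, 3.4% had a coding-strand match in the same window, and 24.7% had a match on either strand anywhere from 250 bases before to 50 after the start. The letters TGANTCA and AACCNGTT, present in 7.81% and 2.09% of promoters on either strand, were absent from all 4 members' promoters. CACCC, present in 57.5%, was found in Krt2 and Krt10. A match to these letters is a description of the sequence, and no binding was measured.

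The libraries held 1343190 to 3798136 counts in the NCAM-enriched group and 3333753 to 4481830 in bulk skin, and 1 count was worth 0.216 to 0.773 CPM (counts relative to library size, as adjusted with the TMM method). Libraries within bulk skin resembled each other (r of log2 CPM across genes, 0.855 to 0.882) more than those within the NCAM-enriched group (0.596 to 0.719). NCAM-enriched library 3 stood apart with a summed level of 31095 CPM for 7 basal keratinocyte markers, against 9898 and 7580 CPM in libraries 1 and 2, and the lowest of the 3 for 10 Merkel cell markers, 456 CPM against 1580 and 1619. Library 2 stood apart from these 2 with 32932 CPM for 5 fibroblast markers, against 361 and 41.4 CPM in libraries 1 and 3. The bulk skin libraries held 10319 to 18167 CPM of the fibroblast markers, so libraries 1 and 3 were the low ones. Bulk skin held 135 to 179 CPM of the Merkel markers, 5 of which rose in the NCAM-enriched group. It also held 3446 to 3775 CPM of 6 T cell markers and 8464 to 14255 CPM of 6 Langerhans and myeloid cell markers, against 1.06 to 71.1 and 174 to 633 CPM in the NCAM-enriched libraries, and 5 of each list fell. Cd3d, a defining T cell gene, was at 0 in every NCAM-enriched library. Of 7 hair follicle markers Krt17 rose and Lgr6 fell, with 3 fold changes above 0 and 4 below (median log2 fold change -0.50). Their sums were 6287 to 28802 CPM in the NCAM-enriched and 2205 to 2854 CPM in the bulk skin libraries. Most of the NCAM-enriched sums came from Krt17 (4914 to 17761 CPM) and Krt79 (961 to 10334 CPM). All 4 red blood cell markers fell, with sums of 22.8, 1.55 and 1.42 CPM in the NCAM-enriched libraries and Hba-a2 and Hbb-bt at 0 there. The red blood cell and T cell markers passed the filter on low counts through bulk skin, so they could only be called lower. Mitochondrial genes took 0.313% to 1.97% of counts in the NCAM-enriched libraries and 0.139% to 0.263% in bulk skin. The part of these differences in the keratin results was not tested, and in sorted pools fewer cells of a type and less RNA per cell cannot be told apart.

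Krt10, Krt77 and Krt78 rose in the NCAM-enriched libraries, by 15.7-fold for Krt10 and 24.4-fold for Krt77, and Krt78 was close to absent from bulk skin. Krt1 and Krt80 had higher group means but did not pass the test, and Krt2 was near the limit of counting in both groups. Of the 5 members tested, edgeR called 3 higher and 0 lower (threshold on the adjusted p, 0.05), against 1.04% of all tested genes called higher, 1.55% called lower and 2.59% in either direction. Krt78 passed the filter on low counts only through the NCAM-enriched group, so it could only be called higher, and of the other 4 members 2 were called. Any statement below that a gene rose refers to edgeR's quasi-likelihood test with Benjamini-Hochberg adjustment over the 13157 genes. DESeq2 called 5 members and 7.64% of its genes higher, limma-voom 4 members and 2.67%, and edgeR with all genes of at least 1 count 5 members and 2.76%. In the edgeR fit as reported, the count of 3 called members became 4 without NCAM-enriched library 2 or library 3 and 0 without any single bulk skin library. The number of all genes called higher changed as well. It went from 137 to 444 and 1099 without NCAM-enriched library 2 or 3, and to 0 or 1 without a bulk skin library.

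**Figure D1:**
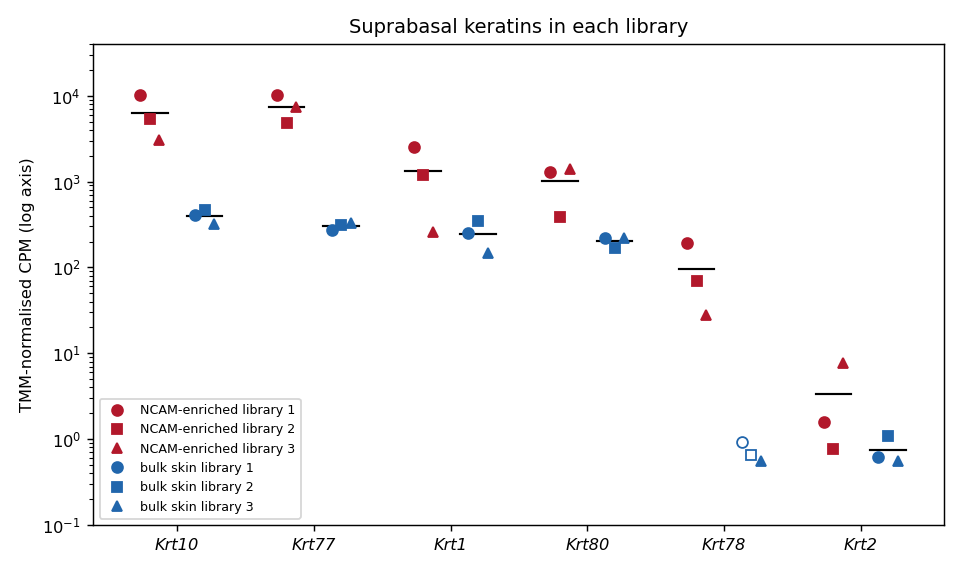
TMM-normalised CPM (log axis) of the 6 suprabasal keratins in each library, red for NCAM-enriched and blue for bulk skin, with black lines at the group means (none drawn for Krt78 in bulk skin) and open symbols at the level of 3 counts where the library held 0. For Krt10, Krt77, Krt78 and Krt80 every red point lies above every blue one, while Krt1 and Krt2 overlap.

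Krt10, the type I partner in the spinous pair, had 10220.3, 5381 and 3061 CPM in NCAM-enriched libraries 1 to 3 and 405, 464 and 323 CPM in bulk skin libraries 1 to 3. The lowest NCAM-enriched library was 6.60-fold above the highest bulk skin library, so the groups did not overlap. The means were 6221 ± 3653 (SD, n = 3) and 397 ± 70.8 CPM (SD, n = 3), a log2 fold change of 3.97 ± 0.62 (SE; edgeR adjusted p = 0.0190). Krt10 was called in 12 of 15 alternative fits, and the other 3 were those without a bulk skin library, with adjusted p from 0.149 to 0.182.

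Krt77, a type II keratin that sits next to Krt1 on the chromosome, had 10183, 4811 and 7397 CPM in the NCAM-enriched libraries and 274, 313 and 330.4 CPM in bulk skin. It showed the widest gap between groups among the well-counted members, the lowest NCAM-enriched library being 14.6-fold above the highest bulk skin library. The means were 7463 ± 2686 (SD, n = 3) and 306 ± 29.0 CPM (SD, n = 3), a log2 fold change of 4.61 ± 0.56 (SE; edgeR adjusted p = 0.00884). Its libraries also differed least within each group, by 2.12-fold from lowest to highest among NCAM-enriched and 1.21-fold among bulk skin. Without a bulk skin library its adjusted p was 0.0974 to 0.114, and it was called in the other 12 of 15 alternative fits.

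Krt1, the type II partner of Krt10, had 2528, 1177 and 257 CPM in the NCAM-enriched libraries and 252, 344 and 145 CPM in bulk skin. NCAM-enriched library 3 lay within the bulk skin range, and libraries 1 and 2 lay above it. The means were 1321 ± 1142 (SD, n = 3) and 247 ± 99.6 CPM (SD, n = 3), a log2 fold change of 2.42 ± 0.76 (SE) that did not pass the test (adjusted p = 0.121). Without NCAM-enriched library 3, the library with the high basal marker sum, the log2 fold change was 2.85 and the call was made (edgeR adjusted p = 0.0289). That fit called 1099 of all genes higher, against 137 as reported. Over 15 alternative fits Krt1 was called in 3, with adjusted p from 0.000125 to 0.345.

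Krt80, a type II keratin of the cell margins in late differentiation, had 1283, 382 and 1403 CPM in the NCAM-enriched libraries and 217, 168 and 221 CPM in bulk skin. The groups did not overlap, although the lowest NCAM-enriched library was only 1.73-fold above the highest bulk skin library. Groups that do not overlap, with the NCAM-enriched one higher, were found for 11.1% of all tested genes, and with it lower for 19.3%. The means were 1023 ± 558 (SD, n = 3) and 202 ± 29.7 CPM (SD, n = 3), a log2 fold change of 2.34 ± 0.53 (SE; edgeR adjusted p = 0.0551), just outside the threshold. Krt80 was called in 4 of 15 alternative fits, among them that without NCAM-enriched library 2 (log2 fold change 2.72, edgeR adjusted p = 0.00293), and its adjusted p ranged from 0.000150 to 0.285. The fit without NCAM-enriched library 2 called 444 of all genes higher, against 137 as reported.

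Krt78, another type II keratin of suprabasal cells, had 364, 89 and 97 counts in the NCAM-enriched libraries, or 193, 68.8 and 27.5 CPM. Bulk skin libraries 1 and 2 held 0 counts, which allows up to 0.931 and 0.649 CPM (3 counts), and library 3 held 2 counts, or 0.548 CPM. The groups were thus fully apart, and edgeR called Krt78 higher (adjusted p = 0.0168). With bulk skin near 0, Krt78 entered the test only through the NCAM-enriched libraries, so this call could not have gone the other way. Pooled over libraries the 550 against 2 counts gave a depth-adjusted ratio of 472, with an exact 95% interval of 130 to 3905 that covers counting error only. The fitted log2 fold change of 8.79 ± 1.29 (SE) depends on the prior count, since bulk skin was near 0, and was 7.78 without NCAM-enriched library 1. Without NCAM-enriched library 3 the pooled ratio was 820 (interval 226 to 6789), and without a bulk skin library the edgeR adjusted p was 0.0974 to 0.128.

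Krt2, a type II keratin of the upper spinous and granular layers, had 3, 1 and 27 counts in the NCAM-enriched libraries and 2, 5 and 2 in bulk skin. These are 1.59, 0.773 and 7.66 CPM and 0.621, 1.08 and 0.548 CPM, so only NCAM-enriched library 3 held more than a few counts. The pooled ratio of 31 to 9 counts was 5.91 (exact 95% interval 2.75 to 14.1), and without NCAM-enriched library 3 it was 1.61 (0.362 to 5.76). With all genes of at least 1 count tested, edgeR gave Krt2 a log2 fold change of 2.08 ± 2.38 (SE; edgeR adjusted p = 0.615), and DESeq2 gave 2.17 (adjusted p = 0.381). The difference in Krt2 thus rested on a single library and was not detectable between the groups at this depth.

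**Figure D2:**
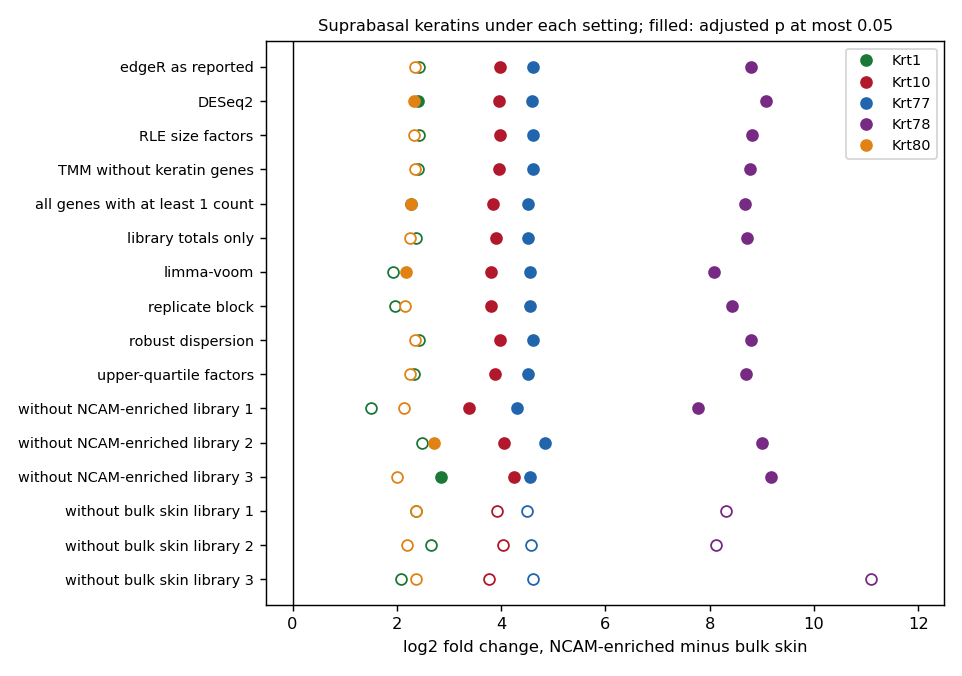
Log2 fold change, NCAM-enriched minus bulk skin, of the 5 tested members as reported and in 15 alternative fits (rows), with filled symbols where the adjusted p is 0.05 or less. All values lie above 0, and no member is filled in the 3 fits that leave out a bulk skin library.

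Levels were next compared between members, as CPM divided by exonic length in kb, since longer transcripts collect more reads. In NCAM-enriched libraries 1 and 2 the order from high to low was Krt10, Krt77, Krt1, Krt80, Krt78 and Krt2. Library 3 exchanged the places of Krt10 with Krt77 and of Krt1 with Krt80. The mean levels there were 2943 ± 1728 CPM per kb for Krt10, 2546 ± 917 for Krt77, 299 ± 259 for Krt1, 160 ± 87.3 for Krt80, 28.1 ± 25.1 for Krt78 and 1.28 ± 1.44 for Krt2 (SD, n = 3). The neighbours Krt10 and Krt77 overlapped in range, as did Krt1 and Krt80, whereas the other neighbours in the order were separate.

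In bulk skin the first places were again Krt10 (188 ± 33.5 CPM per kb, SD, n = 3), Krt77 (104 ± 9.89), Krt1 (56.0 ± 22.6) and Krt80 (31.6 ± 4.64), and Krt2 (0.287 ± 0.111) stood above Krt78 (0.0532 ± 0.0921). Among neighbours in this order only the ranges of Krt1 and Krt80 overlapped. The place of Krt1 depended on its length, because the merged exons (4.415 kb) contain retained introns and its longest coding transcript is 2.455 kb. With coding transcript lengths Krt1 stood above Krt77 in bulk skin libraries 1 and 2 and below it in library 3, their ranges overlapped, Krt1 stood above Krt80 in all 3 bulk skin libraries, and the order in the NCAM-enriched libraries stayed as given. For comparison, the basal pair measured 2070 ± 1757 and 1765 ± 126 CPM per kb for Krt5, and 2252 ± 1971 and 1808 ± 393 for Krt14, in NCAM-enriched and bulk skin libraries (SD, n = 3).

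The libraries also fell into a different order for different members. NCAM-enriched library 1 was highest for Krt1, Krt10, Krt77 and Krt78, and library 3 was highest for Krt80 and Krt2. Within the NCAM-enriched group the highest library exceeded the lowest 9.83-fold for Krt1, 7.03-fold for Krt78, 3.67-fold for Krt80 and 3.34-fold for Krt10. In bulk skin the same spread was 2.37-fold for Krt1, 1.44-fold for Krt10 and 1.32-fold for Krt80. Compared over all 6 libraries by the root-mean-square difference of centred log2 CPM, Krt10 and Krt77 were the most alike pair (0.617), followed by Krt1 and Krt10 (1.06). The least alike were Krt78 with Krt80 (2.41) and Krt78 with Krt1 (2.36).

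Ratios between keratins were taken within each library, which removes library size, with 0.5 counts added to each gene and division by exonic length. They were compared by exact two-sided permutation tests, 14 ratios in all, and with 3 libraries against 3 no p below 0.1 can be reached. For the spinous pair, Krt1/Krt10 was 0.118, 0.105 and 0.0402 in the NCAM-enriched libraries and 0.299, 0.355 and 0.216 in bulk skin. Every bulk skin value was above every NCAM-enriched one, by 3.58-fold on the mean log scale (exact permutation p = 0.1, adjusted 0.233). With coding transcript lengths the values were 0.211, 0.187 and 0.0717 against 0.532, 0.633 and 0.384. The choice of length changes the level of a ratio but not its difference between the groups. There was thus less Krt1 per Krt10 in each NCAM-enriched library than in any bulk skin library, at the limit of what the design can test.

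Krt77/Krt10 was 0.719, 0.645 and 1.74 in the NCAM-enriched libraries and 0.488, 0.487 and 0.738 in bulk skin. These ranges overlapped (exact permutation p = 0.3, adjusted 0.467), and only NCAM-enriched library 3 had more Krt77 than Krt10. Krt77/Krt1 was 6.07, 6.16 and 43.3 against 1.63, 1.37 and 3.42, fully apart (exact permutation p = 0.1, adjusted 0.233). The log2 difference of 2.57 was 1.63 without NCAM-enriched library 3. With coding transcript lengths Krt77/Krt1 was 3.37, 3.42 and 24.1 against 0.909, 0.762 and 1.90, so Krt1 exceeded Krt77 in bulk skin libraries 1 and 2. Krt80/Krt10 was 0.0415, 0.0235 and 0.152 against 0.177, 0.120 and 0.226, with overlap (exact permutation p = 0.2, adjusted 0.4).

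Krt80/Krt1 was 0.350, 0.225 and 3.77 in the NCAM-enriched libraries and 0.594, 0.337 and 1.05 in bulk skin (exact permutation p = 0.9, adjusted 0.969). Krt80 exceeded Krt1 in NCAM-enriched library 3 and, narrowly, in bulk skin library 3, where the ratio was 0.952 with coding transcript lengths. The 5 ratios with Krt2 or Krt78 rest on counts of 0 to 5 in bulk skin, where the added 0.5 counts weigh on the value. Of these, Krt77/Krt2, Krt78/Krt10 and Krt78/Krt1 were separate between groups (exact permutation p = 0.1, adjusted 0.233), and Krt2/Krt10 (p = 0.3, adjusted 0.467) and Krt2/Krt1 (p = 1) were not.

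The suprabasal keratins were also set against the basal pair. Krt10/Krt14, the type I suprabasal to basal ratio, was 3.84, 2.61 and 0.320 in the NCAM-enriched libraries and 0.0862, 0.125 and 0.106 in bulk skin. The groups were separate, 14.1-fold on the mean log scale (exact permutation p = 0.1, adjusted 0.233), with library 3 lowest of the NCAM-enriched libraries, which spanned 12-fold. The log2 difference of 3.82 became 4.92 without NCAM-enriched library 3 and 3.13 without library 1. Krt1/Krt5, the type II counterpart, was 0.571, 0.240 and 0.0142 against 0.0306, 0.0433 and 0.0203, and library 3 lay below all of bulk skin (exact permutation p = 0.4, adjusted 0.56). With coding transcript lengths it was 1.03, 0.432 and 0.0256 against 0.0551, 0.0778 and 0.0365. Krt1/Krt5 thus spanned 40.2-fold within the NCAM-enriched group and 2.13-fold within bulk skin. The ratio within the basal pair, Krt5/Krt14, was 0.795, 1.14 and 0.906 against 0.841, 1.02 and 1.13 and spanned 1.43-fold and 1.34-fold (exact permutation p = 0.8, adjusted 0.969). The ratio of the simple keratins Krt8/Krt18 also overlapped (exact permutation p = 0.9, adjusted 0.969).

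**Figure D3:**
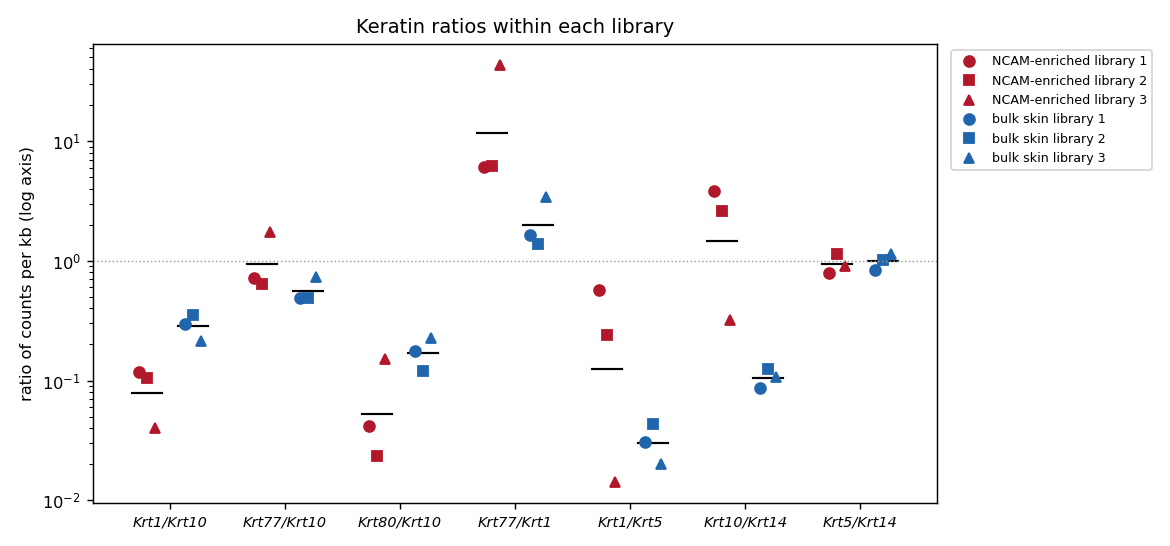
Ratios of counts per kb (log axis) between pairs of keratins in each library, red for NCAM-enriched and blue for bulk skin, with lines at the geometric means. Krt1/Krt10, Krt77/Krt1 and Krt10/Krt14 separate the groups, and NCAM-enriched library 3 (red triangle) lies away from the other red points in every pair drawn but Krt5/Krt14.

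Together the 6 genes made up 24409, 11820.4 and 12154 CPM in the NCAM-enriched libraries and 1149, 1290.3 and 1021 CPM in bulk skin. The means of 16128 ± 7174 and 1153 ± 135 CPM (SD, n = 3) differ 14-fold, and the groups were far apart. As a share of all counts they took 2.30%, 1.14% and 1.13% against 0.111%, 0.133% and 0.107%.

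All 55 keratin genes together took 4.39%, 2.40% and 6.39% of counts in the NCAM-enriched libraries and 1.73%, 1.63% and 1.40% in bulk skin. The suprabasal members were 52.4%, 47.4% and 17.6% of these keratin counts against 6.42%, 8.18% and 7.65%. The basal keratins Krt5, Krt14 and Krt15 were 19.3%, 24.3% and 40.5% against 82.4%, 80.4% and 75.5%. Bulk skin keratin counts were therefore mostly basal, and NCAM-enriched library 3 had both the most keratin counts and the largest basal share of its group.

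Within the members, Krt10 gave 41.9%, 45.5% and 25.2% of counts in the NCAM-enriched libraries and 35.2%, 36.0% and 31.6% in bulk skin. Krt77 gave 41.7%, 40.7% and 60.9% against 23.8%, 24.3% and 32.4%, higher in each NCAM-enriched library. Krt1 gave 10.4%, 9.95% and 2.12% against 22.0%, 26.7% and 14.2%, and Krt80 gave 5.26%, 3.24% and 11.5% against 18.9%, 13% and 21.6%, both lower in each NCAM-enriched library. Krt1 and Krt80 thus took smaller shares of the suprabasal keratin counts in the NCAM-enriched group while their own group means were higher there.

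**Figure D4:**
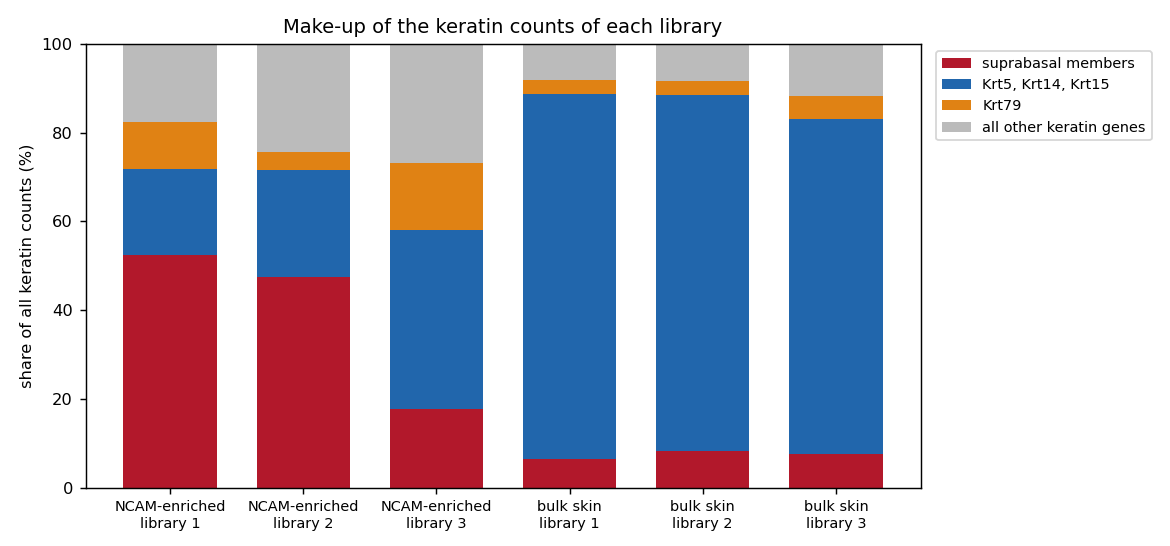
Share of all keratin counts (%) in each library from the 6 suprabasal members, from Krt5, Krt14 and Krt15, from Krt79 and from the remaining keratin genes. The suprabasal share is 17.6% to 52.4% in the NCAM-enriched libraries and 6.42% to 8.18% in bulk skin, where the basal keratins fill 75.5% to 82.4%.

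Among the 49 keratin genes that are not members, 19 were tested, 4 rose (Krt7, Krt17, Krt20 and Krt23) and 0 fell, with a median log2 fold change of 0.66. The shares called over all tested genes were 1.04% higher and 1.55% lower. None of the 3 basal keratins passed the test. Krt14 averaged 3959 ± 3465 CPM in the NCAM-enriched and 3178 ± 691 CPM in the bulk skin libraries (SD, n = 3; log2 fold change 0.32 ± 0.65 SE, edgeR adjusted p = 0.853). Krt5 had 4548 ± 3861 and 3879 ± 276 CPM (0.23 ± 0.64, edgeR adjusted p = 0.894) and Krt15, a keratin of basal and bulge cells, 5799 ± 4633 and 5442 ± 1396 CPM (0.09 ± 0.68, edgeR adjusted p = 0.963). The sign of these 3 values was not stable, since without NCAM-enriched library 3 they were -0.76, -0.81 and -0.80.

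Of 14 hair follicle and stress keratins, 7 were tested, 2 rose and 0 fell, with 4 fold changes above 0 and 3 below (Krt6a, Krt16 and Krt71, from -1.66 to -0.62, none past the test). Krt17, a keratin of hair follicles and injured epidermis, rose from 1106 ± 126 to 9851 ± 6921 CPM (SD, n = 3; log2 fold change 3.15 ± 0.65 SE, edgeR adjusted p = 0.0437). Krt23 rose from 15.1 ± 2.51 to 154 ± 82.9 CPM (3.36 ± 0.57, edgeR adjusted p = 0.0237). Krt79, a keratin of the upper follicle canal, had 5416 ± 4704 against 575 ± 104 CPM and did not pass (3.24 ± 0.81, edgeR adjusted p = 0.0691). The calls of Krt17 and Krt23 were lost without NCAM-enriched library 1 or any bulk skin library. Without NCAM-enriched library 3 the log2 fold change was 2.35 for Krt17 and 2.32 for Krt79.

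Of the 5 simple epithelial keratins, 2 rose and 0 fell. Krt20, used by Merkel cells, rose from 14 ± 1.72 to 131 ± 57.9 CPM (SD, n = 3; log2 fold change 3.21 ± 0.51 SE, edgeR adjusted p = 0.0196), and Krt7 rose from 9.61 ± 4.65 to 116 ± 44.0 CPM (3.58 ± 0.60, edgeR adjusted p = 0.0225). Neither was called once a bulk skin library was left out, and the call of Krt7 was also lost without NCAM-enriched library 1. Krt18 and Krt8, the Merkel cell filament pair, had 245 ± 152 against 55.4 ± 15.1 CPM (2.14 ± 0.56, edgeR adjusted p = 0.0771) and 128 ± 60.8 against 33.7 ± 13.9 CPM (1.92 ± 0.55, edgeR adjusted p = 0.0927). The remaining gene of the list, Krt19, had a log2 fold change of the opposite sign, -3.38 ± 1.34 (SE), and did not pass (edgeR adjusted p = 0.215). Per kb, Krt10 stood above Krt18 in all 6 libraries, at 2943 ± 1728 against 171 ± 106 CPM per kb in the NCAM-enriched group.

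**Figure D5:**
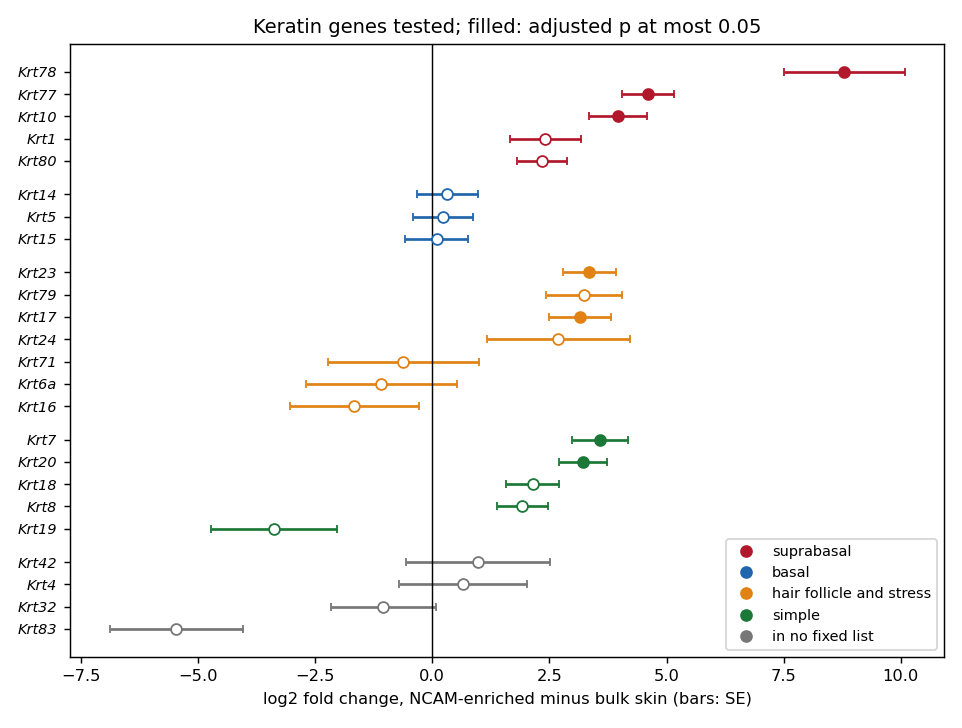
Log2 fold change, NCAM-enriched minus bulk skin, with SE bars for the 24 keratin genes tested, coloured by list, with filled symbols where the adjusted p is 0.05 or less. The suprabasal members Krt78, Krt77 and Krt10 lie furthest to the right, and the basal keratins lie beside 0 with SE of 0.64 to 0.68. The place of Krt78 depends on the prior count, since bulk skin was near 0.

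The part of the type II cluster between Krt77 and Krt78 holds Krt76, Krt4 and Krt79, which were looked up here for their position after the values were seen. Krt76 had 0 counts in all 6 libraries, and Krt4, a keratin of internal stratified epithelia, had 9.32 ± 12.1 and 5.99 ± 5.03 CPM (SD, n = 3; log2 fold change 0.66 ± 1.37 SE, edgeR adjusted p = 0.856). Krt76 was thus absent and Krt4 did not pass the test, while Krt77 and Krt78 on either side rose. Krt79 did not pass either (log2 fold change 3.24, edgeR adjusted p = 0.0691). Its groups did not overlap, however, and it was called in 4 of 15 alternative fits. Krt79 had 4951, 961 and 10334 CPM in the NCAM-enriched libraries and 546, 488 and 690 CPM in bulk skin, highest in library 3, as were Krt80 and Krt2.

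The wider suprabasal programme was described by 22 partner genes of the cornified envelope, desmosomes and granular layer. Of these 21 were tested, 11 rose, 0 fell, and all 21 fold changes were above 0 (median log2 fold change 3.57 against -0.07 over all genes). Over all tested genes 1.04% were called higher and 1.55% lower. The list was chosen with earlier results of these data known, so its shared direction is a description and not independent support. Those that rose were the filaggrins Flg and Flg2, the envelope precursor Ivl, the secreted keratinocyte proteins Sbsn and Krtdap, the desmosomal Dsc1 and Dsp, the envelope scaffolds Ppl and Evpl, the filaggrin protease Asprv1 and the calcium-binding Calm4. Evpl had 569, 443 and 619 CPM in the NCAM-enriched libraries and 36.9, 74.8 and 52.6 CPM in bulk skin (log2 fold change 3.31 ± 0.41 SE, edgeR adjusted p = 0.00939). Calm4 had 3068, 1159 and 2235 CPM against 205, 177 and 163 CPM (3.57 ± 0.50, edgeR adjusted p = 0.0140). For both genes every NCAM-enriched library lay above every bulk skin library, as for 11.1% of all tested genes. They were named for the smallest p of the list, so this separation adds no support. Dmkn, the most abundant partner that was not called, had 3282 ± 2221 against 1271 ± 491 CPM (SD, n = 3; 1.37 ± 0.67 SE, edgeR adjusted p = 0.318). Flg, at 0 in every bulk skin library, could only be called higher. The 11 calls became 3, 19 and 12 without NCAM-enriched library 1, 2 or 3 and 0 without any single bulk skin library. In the same fits all genes called higher went from 137 to 60, 444 and 1099, and to 0 or 1.

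Of 20 transcriptional regulators of epidermal stratification, 4 rose (Ovol1, Grhl3, Zfp750 and Cebpa) and 0 fell, with 17 of 20 fold changes above 0 and a median of 1.09. Over all tested genes 1.04% were called higher and 1.55% lower, with a median of -0.07. This list, too, was chosen with earlier results of these data known. Zfp750, a zinc finger factor of terminal differentiation, had 220.0, 213 and 255 CPM in the NCAM-enriched libraries and 26.7, 41.5 and 38.11 CPM in bulk skin (log2 fold change 2.69 ± 0.37 SE, edgeR adjusted p = 0.0140). Cebpa, which takes part in the exit of keratinocytes from the cell cycle, had 391, 236 and 463 CPM against 70.8, 87.5 and 55.4 CPM (2.35 ± 0.40, edgeR adjusted p = 0.0247). Every NCAM-enriched library lay above every bulk skin library for both factors, as for 11.1% of all tested genes. Both were named for the smallest p of their list, so this separation adds no support. Klf4, a barrier factor, had 1116 ± 412 against 599.8 ± 63.5 CPM (SD, n = 3) and did not pass (0.90 ± 0.40 SE, edgeR adjusted p = 0.272). The 4 calls became 2, 7 and 5 without NCAM-enriched library 1, 2 or 3 and 0 without any single bulk skin library. Here too all genes called higher went from 137 to 60, 444 and 1099, and to 0 or 1.

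The genes other than the members whose pattern over the 6 libraries was nearest to the mean of the 5 tested members were Lhx3, Lypd3, Orm1, Hexim2 and Krt20, at root-mean-square differences of 0.296, 0.384, 0.419, 0.444 and 0.448 in centred log2 CPM among 9589 candidate genes. Lhx3, the nearest, had 99.9, 28.6 and 24.4 CPM in the NCAM-enriched libraries and 3.10, 3.46 and 1.645 CPM in bulk skin. Lypd3, a surface protein of suprabasal keratinocytes, had 830.0, 606 and 577 CPM against 64.0, 61.4 and 59.5 CPM. Among the nearest 50 genes, the Merkel cell markers Krt20, Isl1 and Atoh1 ranked 5, 12 and 13. The suprabasal partners Calm4, Evpl, Dsc1, Asprv1, Krtdap and Sbsn ranked 6, 20, 27, 32, 36 and 48. The other genes of these 2 lists were not among the nearest 50. The keratins among the nearest 50 genes were Krt20, Krt7 and Krt23. Of the members themselves Krt10 lay nearest to their mean (0.190) and Krt78 farthest (1.43). This likeness describes 6 libraries in 2 groups and carries no test.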

How the data were processed

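Per the labels and the study's methods, reads were trimmed and filtered with bbduk and bbmap, aligned to GRCm38 with STAR and counted per gene with featureCounts. Which annotation release and strand option were set is not given in the sources used here. The deposited values are raw counts per gene, which the authors did not normalise. They were tested with edgeR 4.0.16 (quasi-likelihood, TMM, genes kept by filterByExpr, adjusted p at most 0.05), without a covariate. Each SE was taken as |log2 fold change|/√F. CPM are TMM-adjusted. Exonic lengths and positions came from GENCODE M21, which held 54495 of the 54532 gene identifiers. Alternatives used DESeq2 1.42.0, limma 3.58.1 and other filters, scalings and samples. Lengths of coding transcripts were added as an alternative after seeing the data. Intervals and floors of 3 counts cover counting error only, since reads carried no molecular identifiers. The fit was tested on simulated data of 13157 genes, where it recovered 6% of 4-fold and 62% of 16-fold changes, with 4 false calls among 72.

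The members and gene lists were chosen with earlier results of these data known. The genes named were all members, the partner keratins of the ratios (Krt5, Krt14, Krt8, Krt18), from each list the 2 genes with the smallest p and the most abundant tested gene that was not called, and the 5 genes nearest in pattern among those averaging 20 CPM or more in their higher group. The ratio tests were run with scipy 1.17.1.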

Additional observations from a re-analysis of the deposited data

How the results depend on the processing

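The sign of all 5 tested members held in all 15 alternative fits, while the calls depended on the libraries and the test. Genes called higher and lower numbered 137 and 204 in edgeR, 1257 and 1094 in DESeq2, 769 and 741 in edgeR when every gene with a count was tested, 351 and 849 in limma-voom, and 0 to 1099 and 13 to 733 when single libraries were left out. The 0 calls higher came without bulk skin library 1 or 2, where 2115 and 2237 genes had an unadjusted p under 0.05. DESeq2 called 341 of the 341 genes that edgeR called. Members called higher were 5 in DESeq2 and 5 with all genes tested, against 3, and 0 to 4 without single libraries. Krt1 passed at 2.40 (DESeq2) and 2.28 (all genes) and ranged from 1.5 to 2.85 without single libraries, and Krt80 passed at 2.32, 2.28 and 2.17 (limma-voom) and ranged from 1.995 to 2.72. The same ranges were 3.39 to 4.24 for Krt10, 4.31 to 4.83 for Krt77 and 7.78 to 11.1 for Krt78.

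DESeq2 and the fit of all genes called 17 and 17 suprabasal partners and 7 and 7 regulators higher, and upper-quartile scaling called 7 partners. Without single libraries 0 to 19 partners and 0 to 7 regulators were called. Hair follicle and stress keratins called higher were 4 with all genes, 1 with upper-quartile scaling and 0 to 4 without single libraries, and 0 to 1 were called lower. Simple keratins called higher were 4 in DESeq2 and 0 to 4 without single libraries, and 1 was called lower in DESeq2, with all genes and in limma-voom, and 0 to 1 without single libraries.

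Replicate numbers are shared by the groups, and the labels do not say whether they pair the libraries. The deviations of same-numbered libraries from their group means had correlations of 0.0226, 0.00025 and -0.00436. Libraries of different number had -0.0156 to 0.0158. With 3 libraries per group, such values cannot show whether same-numbered libraries share an animal or a sort. In a fit with the replicate number as a block, 50 genes were called higher and 92 lower. Among them were 3 members, 5 partners, 1 regulator, 1 simple and 0 hair follicle and stress keratins. The log2 fold change under the block was -0.052 for Krt14, -0.25 for Krt15, -0.12 for Krt5 and -0.18 for Krt4, with a median over all genes of -0.36. That median was 0.17 in DESeq2 and -0.37 in limma-voom, against -0.07 as reported.

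Krt15 also changed sign with library totals (-0.0015) and limma-voom (-0.21), and Krt5 with limma-voom (-0.075). Without single libraries the log2 fold changes ranged from -0.76 to 0.67 for Krt14, -0.80 to 0.50 for Krt15 (-0.12 without bulk skin library 3), -0.81 to 0.56 for Krt5 and -1.43 to 1.37 for Krt4. The log2 difference of ratios without single libraries ran from -2.11 to 0.57 for Krt2/Krt1 (0.36 without NCAM-enriched library 2), -1.08 to 0.95 for Krt80/Krt1 (-0.24 without bulk skin library 2), -0.22 to 0.037 for Krt5/Krt14 (0.014 without bulk skin library 3) and -0.52 to 0.18 for Krt8/Krt18 (0.12 without bulk skin library 3). The other 10 ratios kept their direction in every alternative. The cause of these changes was not tested. Krt2 and bulk skin Krt78 are limited by depth.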
